A study of Homo sapiens with 6 samples.

Results

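The heat shock protein and chaperone families were taken as the genes whose symbols begin with HSPA, HSPB, HSPH, HSP90, DNAJA, DNAJB, DNAJC, BAG plus a digit or CCT plus a digit, together with HSPD1, HSPE1, TCP1, HSF1 and HSF2. Of 158 symbols that matched, 64 were left out as pseudogene-type or antisense names. The remaining 94 of the 55765 rows of the table are the members described here, and 70 of them reached a mean of 1 FPKM over the 6 libraries (fragments counted per transcript length and library size) and were tested. The suffix rule also removed HSPBP1 and HSPBAP1, which are protein-coding.

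The study measured RNA in SK-NEP-1, a cultured line that the submitters call a Wilms tumor line of the kidney, with 3 libraries of cells given a small interfering RNA against EHMT2 (siEHMT2) and 3 given a control small interfering RNA (siNC). EHMT2 encodes a histone H3 lysine 9 methyltransferase, also called G9a. All libraries are of 1 cell line, and the small interfering RNA sequences, their dose, the harvest time and whether the replicates were separate cultures are not given in the sources used here. The p-values therefore measure the spread between these libraries, which may be technical. In bulk RNA such as this, fewer cells that carry a transcript and less of it per cell cannot be told apart.

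Chaperones bind proteins that are not yet folded, or that have lost their fold, and let them fold in cycles of binding and release that most families drive with ATP. HSP70 proteins (the HSPA genes) hold short stretches of chain. J-domain proteins (DNAJA, DNAJB and DNAJC) bring them clients and start ATP hydrolysis, and nucleotide exchange factors (BAG proteins and HSPH1) let the client go. HSP90 finishes many kinases and hormone receptors, the ring built from TCP1 and the CCT subunits folds actin and tubulin, and HSPD1 with HSPE1 forms the folding chamber of mitochondria. When unfolded protein builds up in the cytosol, the factor HSF1 forms trimers and binds heat shock elements, which are repeats of the unit GAA in alternating direction, and the genes it drives include HSPA1A, HSPA1B, DNAJB1, HSPH1 and, in part, HSPA8 and the cytosolic HSP90 genes.

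The heat shock elements before several of these genes are shown because HSPA1A, HSPA1B, HSPA8 and DNAJB1, which had the widest spread between libraries, are among them. A 3-unit element was searched as GAANNTTCNNGAA or TTCNNGAANNTTC and a 2-unit element as GAANNTTC or TTCNNGAA, which covers both strands. A 2-unit match lies within every 3-unit match. Only exact units were counted, so elements with an imperfect unit were not found. The windows ran from 250 bases before to 50 bases after each RefSeq start site (GRCh38.p14, whereas the expression values were made on hg19 per the submitters' processing notes). Bases of the element are in capitals, all sequences read 5′ to 3′ on the strand of the gene, and where an element lies within an exon of GENCODE release 29 only 30 bases are given.
HSPA8, chr11:123062345-123062374 (minus strand), element from position −230: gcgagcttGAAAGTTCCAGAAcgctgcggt
HSPA8, chr11:123062170-123062199 (minus strand), element from position −55: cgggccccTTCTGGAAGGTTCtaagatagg
HSP90AA1, chr14:102087111-102087140 (minus strand), element from position −88: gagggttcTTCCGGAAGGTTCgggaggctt
HSPD1, chr2:197500061-197500090 (minus strand), overlapping elements from position −245: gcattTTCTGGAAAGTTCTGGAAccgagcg
HSP90AB1, chr6:44247693-44247865 (plus strand), elements from positions −165 and −112: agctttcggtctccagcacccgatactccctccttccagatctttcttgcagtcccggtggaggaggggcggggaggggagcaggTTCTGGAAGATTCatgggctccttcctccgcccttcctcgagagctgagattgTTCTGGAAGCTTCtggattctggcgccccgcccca
DNAJB1, chr19:14518421-14518647 (minus strand), 2-unit elements from positions −77 and −47: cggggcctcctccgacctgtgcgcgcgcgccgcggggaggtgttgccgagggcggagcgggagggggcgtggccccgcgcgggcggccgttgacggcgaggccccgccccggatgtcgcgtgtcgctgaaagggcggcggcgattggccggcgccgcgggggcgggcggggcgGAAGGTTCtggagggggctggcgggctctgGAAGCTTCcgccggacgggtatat
HSPA1A, chr6:31815293-31815463 (plus strand), 2-unit element from position −106: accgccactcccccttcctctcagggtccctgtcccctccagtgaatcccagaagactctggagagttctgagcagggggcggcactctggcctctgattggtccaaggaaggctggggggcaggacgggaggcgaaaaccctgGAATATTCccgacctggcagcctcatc

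Of the 94 members, 80 had a window in the RefSeq table. A 3-unit element was present for 7 of the 80 (8.75%), namely DNAJA1, DNAJB6, HSP90AA1, HSP90AB1, HSPA6, HSPA8 and HSPD1, against 166 of 27305 genes in the whole table (0.608%). The 2-unit element was present for 27 of the 80 members (33.75%), against 4417 of the 27305 genes (16.18%). A match is a string of letters and not a measured site, and no factor binding was measured here. HSPH1 and BAG3, both targets of HSF1, had no exact match in their windows.

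The targeted transcript was lower in each siEHMT2 library than in each siNC library. EHMT2 stood at 7.61, 8.26 and 16.2 FPKM in the siEHMT2 libraries, against 27.5, 27.2 and 22.7 FPKM in the siNC libraries. Its log2 fold change was −1.27 ± 0.24 (SE, limma on log2(FPKM + 1)), with an adjusted p of 0.0609, and every fold change given here is on that log2(FPKM + 1) scale with siNC subtracted from siEHMT2. The libraries numbered 3 stood apart from the others of their group, in EHMT2 and in many members, and in the deviations from the group means siEHMT2 replicate 3 went with siNC replicates 1 and 2 (correlations of 0.360 and 0.243), while siEHMT2 replicate 1 went with siNC replicate 3 (0.481). EHMT2 itself was still lower in siEHMT2 replicate 3 than in siNC replicate 3. Results are therefore also given without both libraries numbered 3, as 2 against 2 libraries, a choice made with earlier results of these data known. Because they were left out for standing apart in these same values, p-values of that fit are a description and no independent test. In that fit EHMT2 had a log2 fold change of −1.67 (adjusted p 0.00203). What set the libraries numbered 3 apart was not tested.

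FPKM sums ran from 244702 to 272271 per library, mitochondrially encoded transcripts made up 19.03% to 23.59% of them, and the members 1.21% to 1.52%. The number of reads is unknown. No library pair had more than 3 nonzero rows with the same value. The EWSR1-FLI1 sarcoma marker NKX2-2 ran from 103 to 134.5 FPKM and CD99 from 43.4 to 70.9 FPKM, whereas the Wilms tumor gene WT1 ran from 0.895 to 1.56 FPKM, SIX2 and PAX2 stayed below 0.24 FPKM, and the renal epithelial genes CDH16, UMOD and LRP2 were listed at 0 in all libraries. The 8 kidney progenitor markers summed to 11.8 to 12.3 FPKM in siEHMT2 and 11.3 to 12.1 FPKM in siNC libraries, and the 4 blood markers to at most 0.270 and 0.109 FPKM.

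No member passed an adjusted p of 0.05 with all 6 libraries, while 71 of the 12859 tested rows did (0.552%). At an unadjusted p under 0.05, 3 members had higher values in siEHMT2 (BAG1, DNAJC14 and DNAJC30), where 10.7% of all rows did, and 8 had lower values (BAG3, BAG4, DNAJB9, DNAJC2, DNAJC7, HSPA14, HSPA4 and HSPH1), where 8.03% of all rows did. The groups did not overlap for 6 members that were higher in siEHMT2 (14.6% of all rows) and 11 that were lower (11.7% of all rows). For 57 of the 70 members the range within a group was wider than the difference between the groups, as it was for 83.5% of all rows. More members had a negative than a positive fold change: 46 of 70 (65.71%) were negative, against 47.59% of all tested rows, and the median was −0.07 for the members and 0.01 for all rows. That imbalance was smaller, at 37 of 70, both without the libraries numbered 3 (median −0.03) and after a correction for the GC content of the transcripts (median −0.02). It was larger, at 51 of 70, after rescaling to the same sum (median −0.12, against −0.03 for all rows). With mitochondrially encoded genes left out of that sum, and with median-ratio scaling, 50 of 70 were negative. What underlies the imbalance was not tested. The members' transcripts had a median GC content of 44.57%, against 50.2% for all tested rows.

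**Figure D1:**
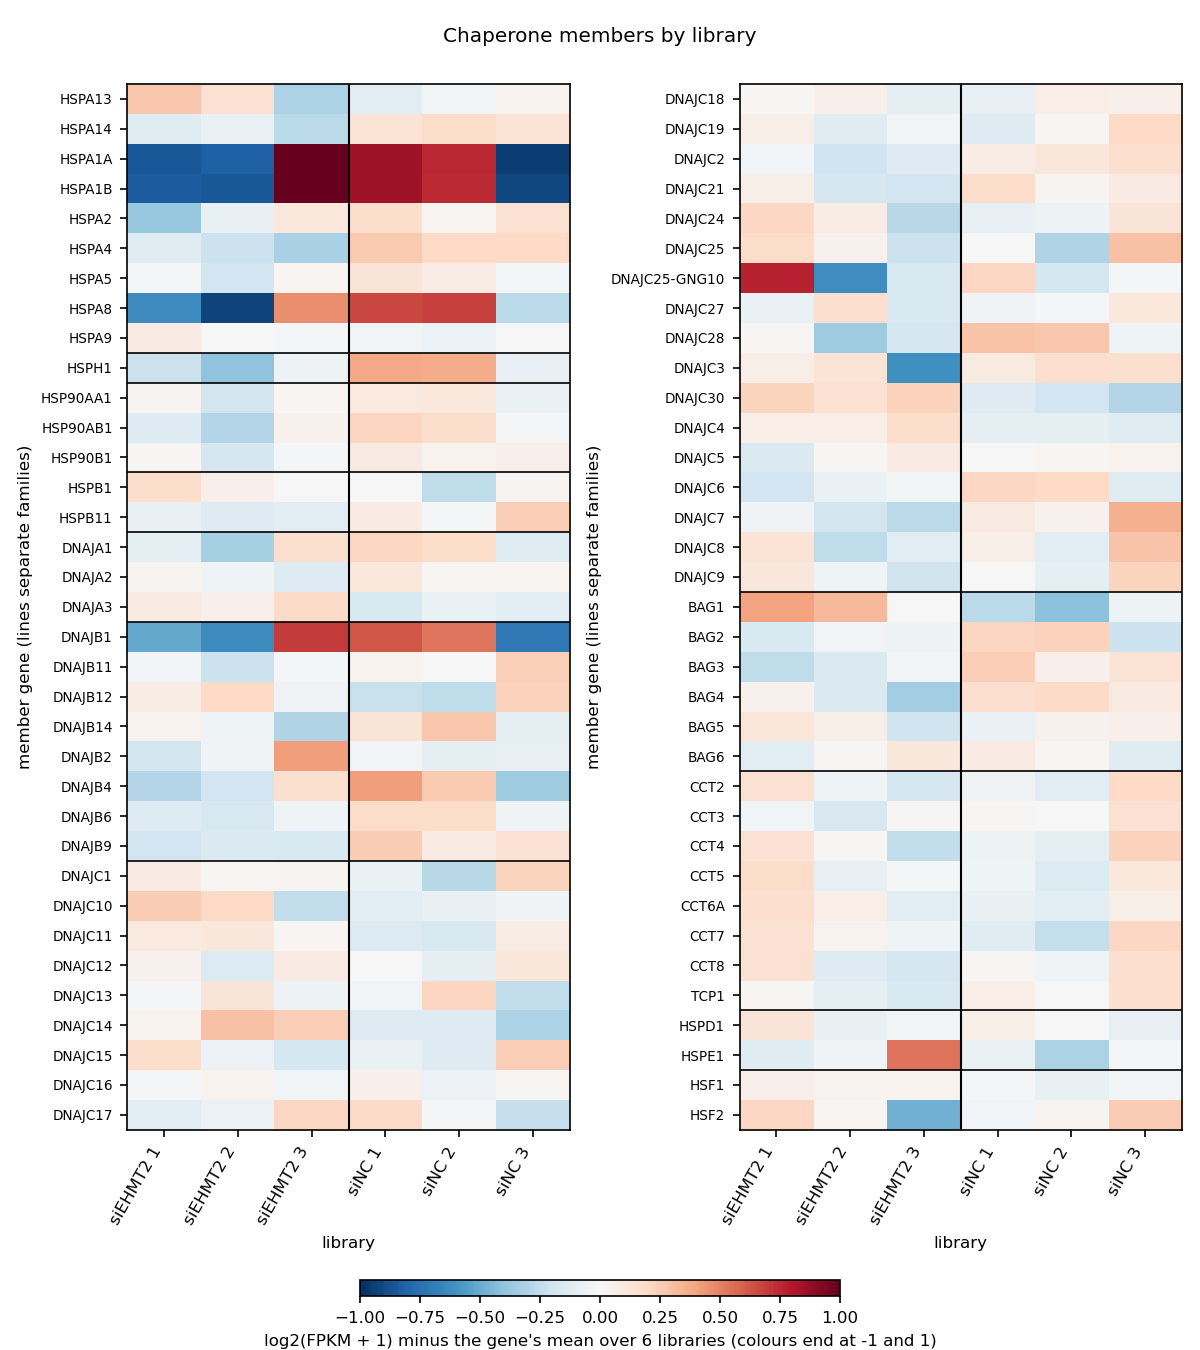
Deviation of each of the 70 tested members from its own mean, as log2(FPKM + 1), in the 3 siEHMT2 and the 3 siNC libraries, grouped by family. HSPA1A and HSPA1B carry the strongest colours, and in them, HSPA8 and DNAJB1 siEHMT2 replicates 1 and 2 and siNC replicate 3 are low and the other 3 libraries high. Colours end at −1 and 1.

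The cytosolic HSP70 genes had the widest spread of all members, and the spread crossed the groups. HSPA8 encodes the HSP70 that is made at all times and folds new chains. It stood at 166, 135 and 355 FPKM in the siEHMT2 libraries, against 408, 413 and 213 FPKM in the siNC libraries. The highest siEHMT2 library, replicate 3, lay above the lowest siNC library, also replicate 3, so the groups overlapped. The log2 fold change was −0.72 ± 0.37 (SE, limma, adjusted p 0.330). Within siEHMT2, replicate 3 held 2.36 times the mean of replicates 1 and 2, and within siNC it held 0.519 times that mean. Without both libraries numbered 3 the log2 fold change of HSPA8 was −1.45 (adjusted p 0.00377).

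HSPA1A and HSPA1B encode the HSP70 protein that heat and proteotoxic stress induce, and at a far lower level they split the libraries into the same low and high sets. HSPA1A stood at 1.97, 2.04 and 9.80 FPKM in siEHMT2, against 8.66, 8.05 and 1.78 FPKM in siNC libraries. HSPA1B stood at 2.68, 2.64 and 12.1 FPKM in siEHMT2, against 10.8, 9.98 and 2.49 FPKM in siNC libraries. For both genes, siEHMT2 replicates 1 and 2 and siNC replicate 3 form a low set and the other libraries a high set, with no value between them. In siEHMT2 replicate 3 HSPA1A was 4.88 times the mean of replicates 1 and 2, and in siNC replicate 3 it was 0.214 times that mean. The log2 fold changes were −0.44 ± 0.59 for HSPA1A and −0.45 ± 0.58 for HSPA1B (SE, adjusted p 0.725 and 0.713), and without both libraries numbered 3 they were −1.64 for both (adjusted p 0.00258). The transcripts of HSPA1A and HSPA1B share 1666 of 2384 stretches of 100 bases (69.88%), so reads could be divided between them either way, and their separate values are uncertain. Their sum was 4.65, 4.68 and 21.9 FPKM in siEHMT2, against 19.4, 18.0 and 4.28 FPKM in siNC libraries, with a log2 fold change of −0.49 ± 0.64 (adjusted p 0.716). HSPA1L, an HSP70 gene next to HSPA1A that shares no such stretch with it, was far too low to test, at 0.0293, 0.0483 and 0.265 FPKM in siEHMT2 and 0.259, 0.236 and 0.0412 FPKM in siNC libraries.

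HSPA4 belongs to the HSP110 branch, whose proteins act as nucleotide exchange factors for HSP70, and its values kept to their groups. It stood at 28.97, 27.1 and 25.04 FPKM in siEHMT2, against 38.0, 36.3 and 36.3 FPKM in siNC libraries. All siEHMT2 libraries lay below all siNC libraries, by more than the range within either group. HSPA4 had the smallest p of all members, with a log2 fold change of −0.44 ± 0.09 (SE, limma) and an adjusted p of 0.0725, and without both libraries numbered 3 it had −0.39 (adjusted p 0.0269). HSPH1, another member of that branch and a target of HSF1, stood at 101, 88.8 and 113 FPKM in siEHMT2, against 154, 152 and 111 FPKM in siNC libraries. Here the libraries numbered 3 met in the middle, and siNC replicate 3 lay below siEHMT2 replicate 3. Its log2 fold change was −0.45 ± 0.15 (unadjusted p 0.0171, adjusted p 0.169), and −0.69 without both libraries numbered 3 (adjusted p 0.0122). HSPA14, which works at the ribosome with DNAJC2, was at 6.41, 6.72 and 5.71 FPKM in siEHMT2, against 7.89, 8.15 and 7.88 FPKM in siNC libraries. Its groups did not overlap (log2 fold change −0.30 ± 0.10, adjusted p 0.162).

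HSPA5 and HSPA9, the HSP70 proteins of the endoplasmic reticulum and of mitochondria, differed little between libraries. HSPA5, also called BiP, was at 97.4, 85.6 and 99.3 FPKM in siEHMT2, against 107, 103 and 97.2 FPKM in siNC libraries. HSPA9 was at 78.9, 74.6 and 73.9 FPKM in siEHMT2, against 73.1, 71.5 and 74.5 FPKM in siNC libraries. The groups overlapped for both, with log2 fold changes of −0.13 ± 0.10 and 0.05 ± 0.09 (adjusted p 0.533 and 0.786). Over the 9 tested HSPA genes, 7 fold changes were negative and the median was −0.30 (−0.32 without both libraries numbered 3). It was −0.15 or −0.14 without siEHMT2 replicate 1 or 2, and −0.15 or −0.20 without siNC replicate 1 or 2. Over the 7 genes other than HSPA1A and HSPA1B, whose separate values are uncertain, the median was −0.23. Summed over all 15 HSPA genes, the siEHMT2 libraries held 398, 349 and 592 FPKM, against 667, 665 and 449 FPKM in siNC libraries. Without HSPA8 the sums were 233, 214 and 238 FPKM in siEHMT2 and 259.7, 252 and 235 FPKM in siNC libraries, so most of the family's spread between libraries was in this gene.

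**Figure D2:**
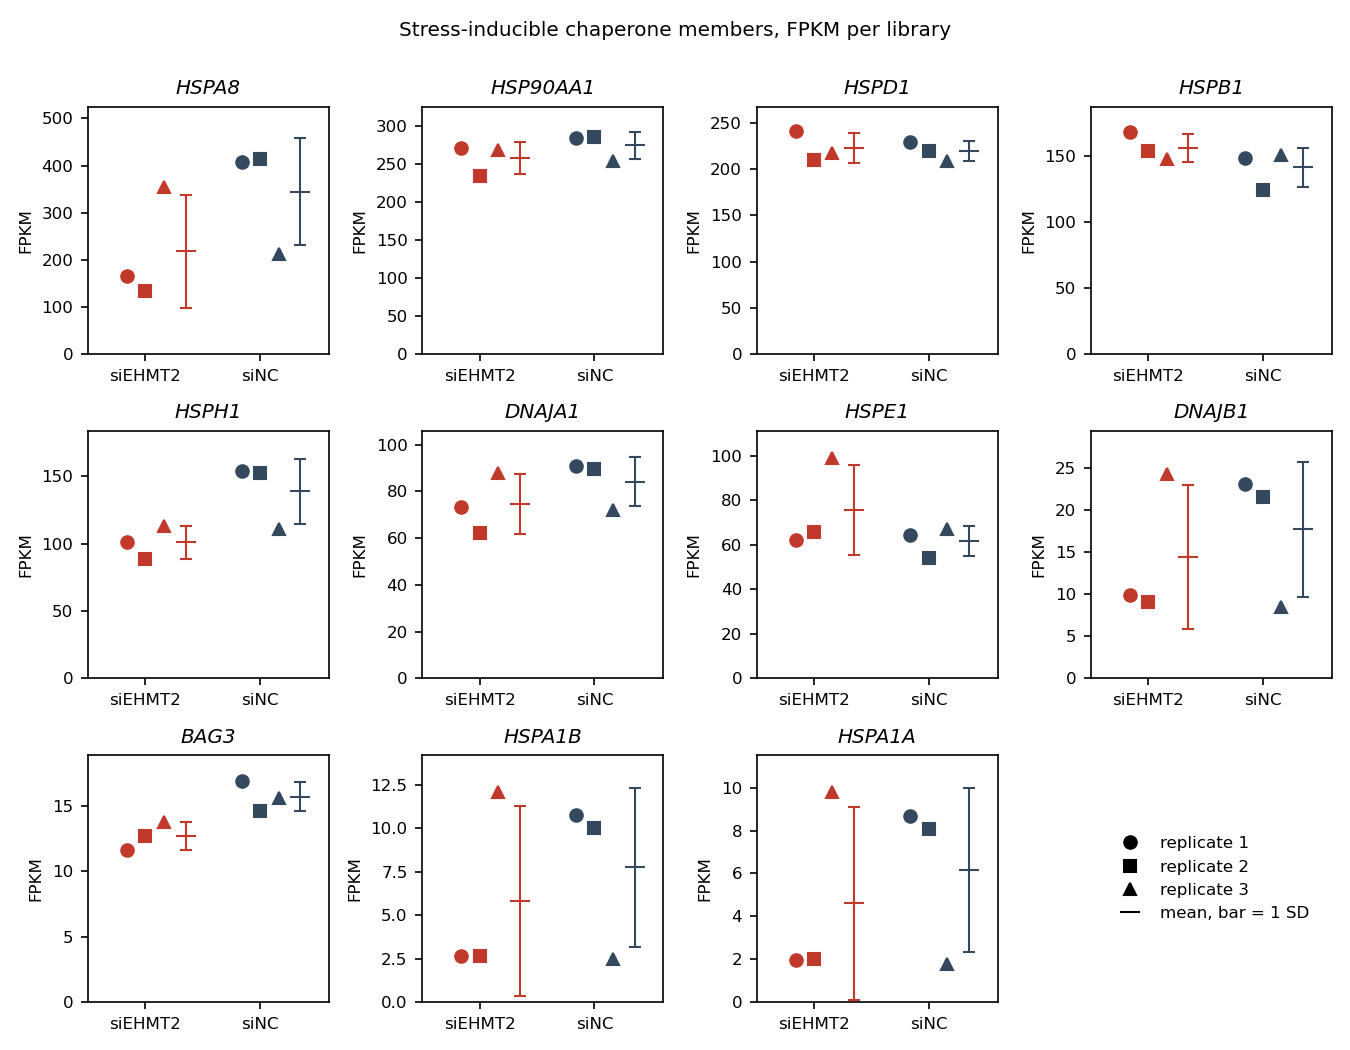
FPKM per library of the 11 tested members of the list of stress-inducible chaperones, with the siEHMT2 libraries left of the siNC libraries, the mean as a line and 1 SD as a bar (n = 3 each), and axes that start at 0. The triangles, replicates numbered 3, sit high in siEHMT2 and low in siNC for HSPA8, DNAJB1, HSPA1A and HSPA1B, while HSPD1, HSP90AA1 and HSPB1 stay within a narrow band.

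Among the J-domain proteins of the cytosol, DNAJB1 followed the HSPA1 genes. DNAJB1, also called HSP40, is the stress-induced partner of HSP70 in dissolving aggregates. It stood at 9.94, 9.07 and 24.3 FPKM in siEHMT2, against 23.0, 21.6 and 8.48 FPKM in siNC libraries. The highest library of all was siEHMT2 replicate 3 and the lowest siNC replicate 3. Its log2 fold change was −0.29 ± 0.42 (SE, adjusted p 0.747), and −1.15 without both libraries numbered 3 (adjusted p 0.00352). DNAJA1, an abundant J-domain partner of HSPA8, was at 73.5, 62.2 and 87.9 FPKM in siEHMT2, against 90.9, 89.4 and 72.1 FPKM in siNC libraries. The same 3 libraries were low (log2 fold change −0.18 ± 0.15, adjusted p 0.551; −0.41 and 0.0422 without both libraries numbered 3). DNAJB4, a close relative of DNAJB1, was at 3.83, 4.19 and 5.60 FPKM in siEHMT2, against 6.91, 6.12 and 3.63 FPKM in siNC libraries, again with siNC replicate 3 lowest.

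DNAJB6, which holds back the aggregation of polyglutamine proteins, kept to its groups instead. It was at 10.2, 9.99 and 10.9 FPKM in siEHMT2, against 12.9, 12.9 and 10.96 FPKM in siNC libraries. The gap between the nearest libraries of the groups was narrow, and the log2 fold change of −0.22 ± 0.10 had an adjusted p of 0.295 (−0.33 and 0.0381 without both libraries numbered 3). DNAJB12, a J-domain protein anchored in the endoplasmic reticulum membrane, was at 4.58, 5.08 and 4.15 FPKM in siEHMT2, against 3.54, 3.44 and 5.21 FPKM in siNC libraries, and siNC replicate 3 was the highest of the 6. It had a log2 fold change of 0.16 ± 0.15 (adjusted p 0.610), and 0.37 without both libraries numbered 3 (adjusted p 0.0467). DNAJA3, the J-domain partner of HSPA9 in mitochondria, was at 10.5, 10.2 and 11.4 FPKM in siEHMT2, against 8.74, 9.37 and 9.07 FPKM in siNC libraries, with no overlap and a log2 fold change of 0.22 ± 0.09 (adjusted p 0.268). Over the families, 2 of 3 tested DNAJA genes and 6 of 8 tested DNAJB genes had negative fold changes, with medians of −0.10 and −0.21. Leaving out 1 library gave medians from −0.13 (without siEHMT2 replicate 1) to −0.06 (without siEHMT2 replicate 2 or 3) for DNAJA and from −0.30 (without siNC replicate 3) to −0.12 and −0.13 (without siNC replicate 1 or 2) for DNAJB, and the GC correction gave −0.01 and −0.11.

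The DNAJC family holds 29 of the members and 26 of those tested, and its proteins have the most varied tasks. Its fold changes lay on both sides of 0, with 10 positive and 16 negative and a median of −0.02. That split turned round without both libraries numbered 3 (16 positive and 10 negative, median 0.03) and with the GC correction (17 and 9, median 0.03). With 1 library left out the median was lowest without siNC replicate 2 or siEHMT2 replicate 1 (−0.06) and highest without siEHMT2 replicate 3 (0.01). DNAJC30, a mitochondrial J-domain protein, was at 6.12, 5.78 and 6.16 FPKM in siEHMT2, against 4.57, 4.35 and 3.97 FPKM in siNC libraries. The groups were apart by more than the range within either, and the log2 fold change was 0.41 ± 0.10 (SE, limma, unadjusted p 0.00350, adjusted p 0.0979; 0.35 and 0.0459 without both libraries numbered 3). DNAJC14 was at 13.5, 16.4 and 15.9 FPKM in siEHMT2, against 12.0, 12.0 and 10.4 FPKM in siNC libraries, without overlap (log2 fold change 0.38 ± 0.11, adjusted p 0.130). DNAJC4 was at 4.13, 4.12 and 4.54 FPKM in siEHMT2, against 3.57, 3.59 and 3.50 FPKM in siNC libraries. These siNC libraries lay within 0.1 FPKM of each other and below all siEHMT2 libraries (log2 fold change 0.21 ± 0.10, adjusted p 0.311).

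On the lower side, DNAJC7 and DNAJC2 kept to their groups. DNAJC7, which binds HSP70 and HSP90 and passes clients between them, was at 10.5, 9.43 and 8.83 FPKM in siEHMT2, against 11.6, 11.2 and 14.2 FPKM in siNC libraries. DNAJC2, the ribosome-bound partner of HSPA14, was at 11.2, 9.81 and 10.3 FPKM in siEHMT2, against 12.0, 12.4 and 12.9 FPKM in siNC libraries. Both had siEHMT2 below siNC in every library, with log2 fold changes of −0.33 ± 0.12 and −0.24 ± 0.10 (adjusted p 0.197 and 0.230). The most abundant of the family, DNAJC8, a protein associated with splicing, was at 66.4, 50.3 and 55.6 FPKM in siEHMT2, against 62.7, 55.5 and 73.6 FPKM in siNC libraries, and its groups overlapped widely. DNAJC28 and DNAJC21, of which DNAJC21 takes part in ribosome assembly, had log2 fold changes of −0.34 ± 0.16 and −0.20 ± 0.12 (adjusted p 0.285 and 0.401). Their means were 0.766 and 3.25 FPKM in siEHMT2, against 1.24 and 3.86 FPKM in siNC libraries. DNAJC28 reached the mean of 1 FPKM for testing only through its higher siNC mean, so its negative fold change is a description. DNAJC25-GNG10 is a read-through gene that overlaps DNAJC25, so its values, at 3.85, 0.845 and 1.55 FPKM in siEHMT2 and 2.28, 1.51 and 1.80 FPKM in siNC libraries, are uncertain.

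**Figure D3:**
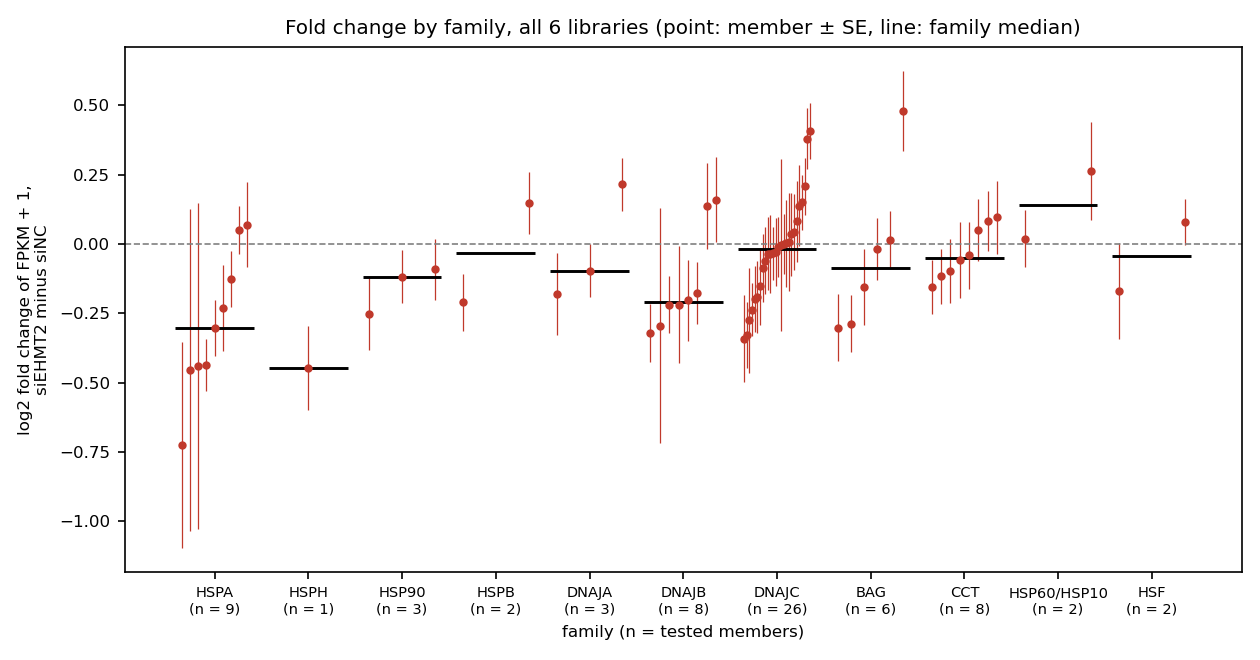
Log2 fold change of FPKM + 1, siEHMT2 minus siNC, of each tested member with its standard error (points and bars, 3 libraries per group), sorted within 11 families, with the family median as a line. Medians run from −0.45 for HSPH1 alone and −0.30 for HSPA to 0.14 for HSPD1 with HSPE1, and the bars of HSPA1A, HSPA1B, HSPA8 and DNAJB1 are the longest.

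HSP90AB1, the cytosolic HSP90 that is made at all times, was the most abundant of all members. It alone made up 16.66% of the members' summed mean FPKM. It stood at 535, 476 and 603 FPKM in siEHMT2, against 678, 662 and 581 FPKM in siNC libraries. The groups overlapped only through the libraries numbered 3, and the log2 fold change was −0.25 ± 0.13 (SE, adjusted p 0.331; −0.41 and 0.0520 without both libraries numbered 3). HSP90AA1, the stress-inducible form, was at 271, 234 and 269 FPKM in siEHMT2, against 284, 285 and 254 FPKM in siNC libraries. Its spread between libraries was small beside that of HSPA8 (log2 fold change −0.09 ± 0.11, adjusted p 0.693). HSP90B1, the form of the endoplasmic reticulum also called GRP94, was at 141, 125 and 139 FPKM in siEHMT2, against 149.5, 144 and 145 FPKM in siNC libraries. Here all siEHMT2 values lay below all siNC values (log2 fold change −0.12 ± 0.10, adjusted p 0.542). All 3 fold changes of the family were negative, and its sums were 947, 835 and 1011 FPKM in siEHMT2, against 1111, 1091 and 981 FPKM in siNC libraries.

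HSPB1, also called HSP27, was the only small heat shock protein gene at a high level; these proteins hold unfolded chains without ATP. It was at 168, 153 and 147 FPKM in siEHMT2, against 148.5, 124 and 150.5 FPKM in siNC libraries. The groups overlapped, and the log2 fold change was 0.15 ± 0.11 (adjusted p 0.517). HSPB11, which despite its symbol is a subunit of intraflagellar transport, was at 10.1, 9.69 and 9.88 FPKM in siEHMT2, against 11.4, 10.6 and 12.9 FPKM in siNC libraries, without overlap (log2 fold change −0.21 ± 0.10, adjusted p 0.306). The other 7 HSPB rows were under 1 FPKM on average.

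The BAG genes held the largest positive and some of the more negative fold changes. BAG1, a nucleotide exchange factor that links HSP70 to the proteasome, had the largest positive one of all tested members. It was at 9.09, 8.60 and 6.63 FPKM in siEHMT2, against 5.37, 4.78 and 6.41 FPKM in siNC libraries. The groups did not overlap, although the libraries numbered 3 lay close together. The log2 fold change was 0.48 ± 0.14 (SE, limma, unadjusted p 0.00951, adjusted p 0.139), and 0.70 without both libraries numbered 3 (adjusted p 0.0119). BAG3, which pairs with HSP70 to send aggregates to autophagy and is itself a target of HSF1, was at 11.6, 12.7 and 13.8 FPKM in siEHMT2, against 16.9, 14.7 and 15.6 FPKM in siNC libraries. Unlike HSPA1A and DNAJB1 it kept to its groups, with a log2 fold change of −0.29 ± 0.10 (adjusted p 0.197) and −0.35 without both libraries numbered 3 (adjusted p 0.0591). BAG4 was at 7.44, 6.41 and 5.43 FPKM in siEHMT2, against 8.22, 8.37 and 7.71 FPKM in siNC libraries, also without overlap (log2 fold change −0.30 ± 0.12, adjusted p 0.232). BAG6, the most abundant of the family and a chaperone of tail-anchored membrane proteins, was at 49.1, 53.5 and 57.5 FPKM in siEHMT2, against 56.1, 53.6 and 48.6 FPKM in siNC libraries, and its log2 fold change of 0.02 ± 0.10 changed sign with other scalings. Over the 6 BAG genes 4 fold changes were negative, with a median of −0.09.

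Most chaperonin genes ordered the libraries numbered 3 the opposite way to HSPA8, HSPA1A, HSPA1B and HSPA5. CCT7, the most abundant, was at 161, 148 and 141 FPKM in siEHMT2, against 133, 123 and 167 FPKM in siNC libraries. CCT4 was at 125, 114 and 95.1 FPKM in siEHMT2, against 109, 106 and 133 FPKM in siNC libraries. TCP1, which gave the ring its name, was at 115, 107 and 103 FPKM in siEHMT2, against 119, 114 and 128 FPKM in siNC libraries. In these and in CCT2, CCT6A and CCT8, siEHMT2 replicate 3 was the lowest of its group and siNC replicate 3 the highest of its own. CCT3 and CCT5 did not share this order, while HSPA9, HSPA13 and 23.6% of all rows did. Fold changes were negative for 5 of the 8 tested genes, from −0.15 for TCP1 to 0.10 for CCT7, with a median of −0.05. The split was 6 positive and 2 negative without both libraries numbered 3 (median 0.13) and with the GC correction (median 0.02), and with 1 library left out the median was lowest without siEHMT2 replicate 1 (−0.13) and highest without siNC replicate 3 (0.05). No CCT gene had groups that did not overlap, and the lowest unadjusted p in the family was 0.146, for TCP1. The family's sums were 965, 867 and 830 FPKM in siEHMT2, against 874, 841 and 1002 FPKM in siNC libraries. They lay within 1 SD of each other on average, at 888 ± 69.6 FPKM in siEHMT2 and 906 ± 85.3 FPKM in siNC libraries (SD, n = 3 each).

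**Figure D4:**
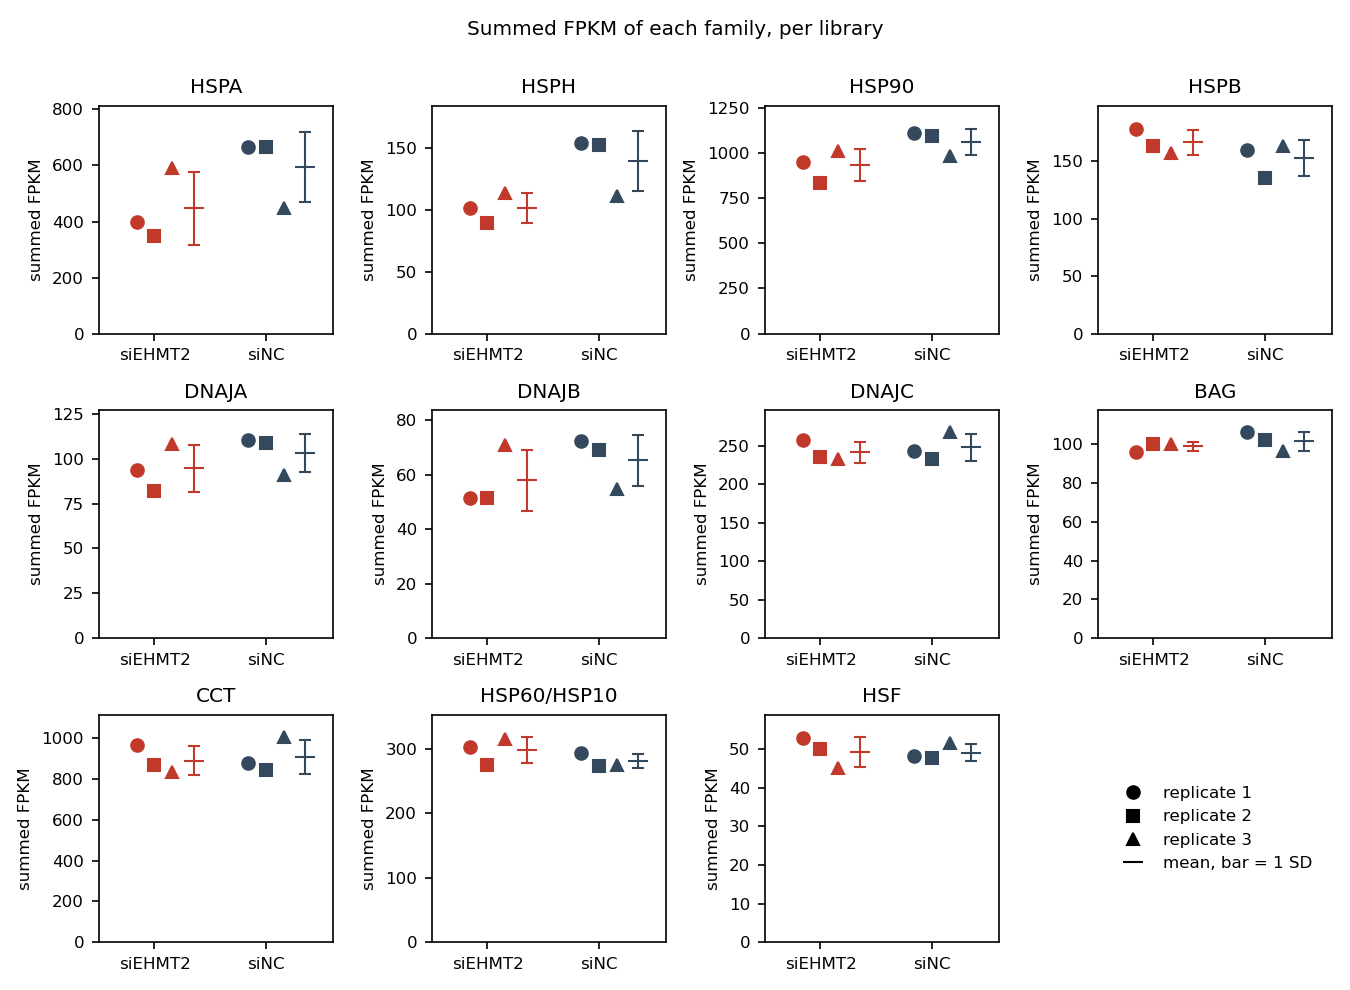
Summed FPKM of each family per library, siEHMT2 left of siNC, with the mean as a line and 1 SD as a bar (n = 3 each) and axes that start at 0. In HSPA, HSPH, HSP90, DNAJA and DNAJB the replicate numbered 3 is high in siEHMT2 and low in siNC, while in CCT it is low in siEHMT2 (830 FPKM) and high in siNC (1002 FPKM).

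The order of libraries was counted over all tested members. In 12 of them, siEHMT2 replicates 1 and 2 and siNC replicate 3 all lay below the other 3 libraries (BAG6, DNAJA1, DNAJB1, DNAJB4, DNAJC17, DNAJC6, HSP90AB1, HSPA1A, HSPA1B, HSPA5, HSPA8 and HSPH1), which is 17.1% of the members where 10.6% of all tested rows had this order. In 13 members, among them CCT4, CCT6A, CCT7, HSPA9 and HSPB1, these 3 libraries all lay above the others, which is 18.6% where 11.9% of all rows did. Counting the libraries numbered 3 against the others of their group alone, siEHMT2 replicate 3 was the highest and siNC replicate 3 the lowest in 15 members (21.9% of all rows), and the reverse held in 21 (23.6% of all rows). Those counts are 15 and 21 of 70 members. The size of the spread set a few members apart: only 0.451% of tested rows had a wider range over the 6 libraries than HSPA1A on the log2 scale, and 1.04% a wider range than HSPA8. What moved these genes between libraries was not tested.

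Without both libraries numbered 3, 12 of the 70 members passed an adjusted p of 0.05. Of them 9 were lower in siEHMT2, DNAJA1, DNAJB1, DNAJB4, DNAJB6, HSPA1A, HSPA1B, HSPA4, HSPA8 and HSPH1, which is 12.9% of the members where 6.61% of all rows were called lower. BAG1, DNAJB12 and DNAJC30 were higher, which is 4.29% where 8.09% of all rows were called higher. In DNAJA1, DNAJB1, DNAJB4, DNAJB12, HSPA1A, HSPA1B, HSPA8 and HSPH1 the libraries left out are those whose values crossed the groups. These calls therefore follow in part from the choice of libraries. Leaving out 1 library at a time left 0 members past the threshold in each of the 6 fits.

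**Figure D5:**
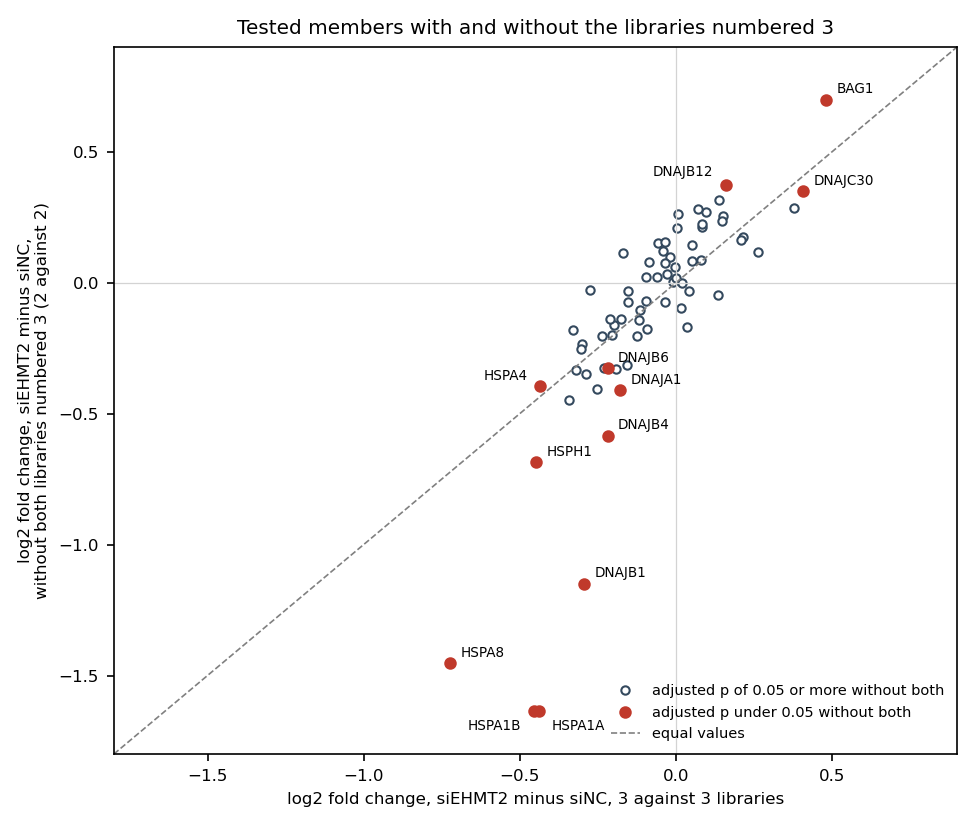
Log2 fold change of the 70 tested members with all 6 libraries (horizontal) and without both libraries numbered 3 (vertical), siEHMT2 minus siNC, with filled points for the 12 members past an adjusted p of 0.05 without them and a dashed line of equal values. HSPA1A, HSPA1B, HSPA8 and DNAJB1 lie far below the line, while HSPA4, at −0.44 and −0.39, and DNAJC30, at 0.41 and 0.35, lie near it.

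Grouped by compartment, the list of stress-inducible chaperones had 8 of 11 tested members with negative fold changes and a median of −0.29 (−0.41 without both libraries numbered 3, where 6 of the 11 were called lower, against 6.61% of all rows). It was −0.13 or −0.06 without siEHMT2 replicate 1 or 2, and −0.12 or −0.13 without siNC replicate 1 or 2. The 3 members with positive fold changes were HSPB1, HSPD1 and HSPE1. Without HSPA1A and HSPA1B, whose separate values are uncertain, 6 of the 9 remaining fold changes were negative, with a median of −0.18. HSPD1, the mitochondrial HSP60, was at 241, 209.7 and 217 FPKM in siEHMT2, against 229.8, 219.9 and 208.5 FPKM in siNC libraries, and its log2 fold change of 0.02 ± 0.10 changed sign with other scalings. HSPE1, the lid of its chamber, was at 62.1, 66.0 and 98.9 FPKM in siEHMT2, against 64.5, 54.0 and 67.0 FPKM in siNC libraries, so that siEHMT2 replicate 3 alone stood high (log2 fold change 0.26 ± 0.18, adjusted p 0.460).

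Among the 8 genes of the mitochondrial list, 6 fold changes were positive, with a median of 0.10 (0.14 without both libraries numbered 3, and 0.06 without siEHMT2 replicate 3). Apart from DNAJC30, DNAJA3, HSPA9, HSPD1 and HSPE1, described above, they were DNAJC11, DNAJC15 and DNAJC19. DNAJC11, a protein of the contact sites of the inner membrane, was at 29.7, 29.99 and 28.1 FPKM in siEHMT2, against 25.1, 24.7 and 29.2 FPKM in siNC libraries, where siNC replicate 3 alone reached the siEHMT2 values (log2 fold change 0.15 ± 0.10, adjusted p 0.448). DNAJC15 and DNAJC19, which serve protein import, had negative fold changes of −0.04 and −0.06 that changed sign with the GC correction.

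The list of endoplasmic reticulum members holds 8 genes, DNAJB12 not among them, with 5 negative fold changes and a median of −0.12. That median was −0.06 without siEHMT2 replicate 2 and with the GC correction, and −0.08 without both libraries numbered 3. DNAJB9, a J-domain partner of HSPA5 that the unfolded protein response induces, was at 3.46, 3.61 and 3.59 FPKM in siEHMT2, against 5.07, 4.37 and 4.63 FPKM in siNC libraries. Its groups were apart by more than the range within either (log2 fold change −0.32 ± 0.10, SE, unadjusted p 0.0146, adjusted p 0.159). DNAJB11, a soluble J-domain partner of HSPA5, was at 9.38, 8.13 and 9.45 FPKM in siEHMT2, against 9.85, 9.57 and 11.5 FPKM in siNC libraries, also without overlap but with a log2 fold change of only −0.18 ± 0.11 (adjusted p 0.425). In DNAJC3, a luminal J-domain protein, siEHMT2 replicate 3 alone was low: it was at 5.79, 6.13 and 3.24 FPKM in siEHMT2, against 5.90, 6.31 and 6.24 FPKM in siNC libraries. DNAJC10, a disulfide reductase, and HSPA13 shared that low library, with 6.66, 6.37 and 4.39 FPKM in siEHMT2 against 4.98, 5.11 and 5.26 FPKM in siNC libraries for DNAJC10. Their log2 fold changes were 0.14 ± 0.15 for DNAJC10 and 0.07 ± 0.15 for HSPA13, whose sign turned without siEHMT2 replicate 1. DNAJC1 was close to 0, at 0.08 ± 0.15.

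HSF1 and HSF2, the heat shock factors, differed in how far their libraries spread. HSF1 was at 34.4, 34.05 and 34.02 FPKM in siEHMT2, against 32.8, 31.5 and 32.5 FPKM in siNC libraries. These groups did not overlap, yet the log2 fold change was 0.08 ± 0.08 (adjusted p 0.649) and turned to −0.04 with the GC correction. HSF2 was at 18.3, 15.9 and 10.99 FPKM in siEHMT2, against 15.4, 15.99 and 18.9 FPKM in siNC libraries, with siEHMT2 replicate 3 lowest and siNC replicate 3 highest. Its log2 fold change was −0.17 ± 0.17 (adjusted p 0.642), and 0.11 without both libraries numbered 3.

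Of the 7 members with a 3-unit heat shock element, 6 were tested and 5 of these had negative fold changes, with a median of −0.20 (−0.37 without both libraries numbered 3, where DNAJA1, DNAJB6 and HSPA8 were called lower, against 6.61% of all rows). Of the genes printed above, HSPD1 and HSP90AA1 carry 3-unit elements and varied little between libraries. HSPA8 also carries 3-unit elements and varied 3.06-fold from its lowest to its highest library. HSPA1A and DNAJB1, where the search for exact units found 2-unit elements alone, varied widely. HSPA6, the strictly inducible HSP70, has a 3-unit element and was barely present, at 0.0397, 0.0217 and 0.0782 FPKM in siEHMT2 and 0.121, 0.0886 and 0.0223 FPKM in siNC libraries.

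Other genes of protein folding, 69 in 6 lists, were set beside the members, and 65 were tested. None of them passed an adjusted p of 0.05 with all 6 libraries, 13 were higher in siEHMT2 at an unadjusted p under 0.05 (10.7% of all rows were) and 1 was lower (8.03% of all rows were). The 14 tested co-chaperones of HSP90 had 10 positive fold changes and a median of 0.17. CDC37, which brings kinases to HSP90, was at 61.2, 62.5 and 74.4 FPKM in siEHMT2, against 48.3, 42.6 and 46.8 FPKM in siNC libraries, without overlap (log2 fold change 0.51 ± 0.11, adjusted p 0.0725; 0.44 and 0.0274 without both libraries numbered 3). NUDC was at 77.7, 81.2 and 72.6 FPKM in siEHMT2, against 53.1, 48.1 and 64.5 FPKM in siNC libraries (0.48 ± 0.12, adjusted p 0.0986; 0.64 and 0.0119 without both). CHORDC1, an HSP90 cofactor induced by heat, instead followed HSPA8, at 5.30, 6.001 and 7.93 FPKM in siEHMT2 and 9.88, 10.4 and 5.51 FPKM in siNC libraries (adjusted p 0.440; 0.0105 without both).

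All 7 genes in the list of HSP70 partners outside the J-domain and BAG families had positive fold changes, as did 6740 of all 12859 tested rows. Their median was 0.25, opposite in sign to the median of the HSPA genes themselves. This list leaves out HSPA4 and HSPH1, which are counted among the members. Both act as exchange factors for HSP70 and had negative fold changes (−0.44 and −0.45). SIL1, the exchange factor for HSPA5, was at 3.40, 3.99 and 4.03 FPKM in siEHMT2, against 2.53, 2.73 and 2.87 FPKM in siNC libraries (log2 fold change 0.37 ± 0.11, adjusted p 0.143). STUB1, the ubiquitin ligase CHIP, was at 32.2, 29.97 and 33.98 FPKM in siEHMT2, against 25.8, 21.4 and 28.1 FPKM in siNC libraries (0.35 ± 0.12, adjusted p 0.170). Neither gene's groups overlapped. LONP1, the protease of the mitochondrial matrix, was at 36.5, 37.2 and 41.0 FPKM in siEHMT2, against 30.05, 27.5 and 25.1 FPKM in siNC libraries (0.46 ± 0.10, adjusted p 0.0769), while the 9 genes of its list had a median of 0.01 (0.14 without both libraries numbered 3, −0.04 after rescaling to the same sum). AFG3L2, a protease of the inner membrane, had 0.15 ± 0.12 (adjusted p 0.545).

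In the remaining lists the signs were mixed. Prefoldin and cofactors of the CCT ring had 3 positive and 6 negative fold changes with a median of −0.11, which turned round to 6 and 3 with a median of 0.13 without both libraries numbered 3, and to 5 and 4 with the GC correction. Leaving out 1 library gave medians from −0.23 (without siEHMT2 replicate 1) to 0.02 (without siEHMT2 replicate 3). PFDN6 was at 6.49, 8.81 and 12.3 FPKM in siEHMT2 and 6.07, 4.81 and 4.91 FPKM in siNC libraries (adjusted p 0.132), and PDCL had −0.24 ± 0.09 (adjusted p 0.206). The unfolded protein response had 10 positive and 7 negative (8 and 9 without both libraries numbered 3, 7 and 10 with the GC correction or without siEHMT2 replicate 3), with the smallest p for HERPUD1, at 5.52, 5.35 and 4.88 FPKM in siEHMT2 and 4.36, 3.99 and 3.90 FPKM in siNC libraries (adjusted p 0.186), and for TRIB3, at 0.31 ± 0.12 (adjusted p 0.207). HSF1 targets and other HSF factors outside the families had 3 positive and 6 negative (5 and 4 without siEHMT2 replicate 2), with IER5 at 0.19 ± 0.11 (adjusted p 0.378). DEDD2, of that list, had the order of libraries seen in HSPA1A, at 4.92, 5.54 and 10.8 FPKM in siEHMT2 and 8.26, 8.65 and 4.48 FPKM in siNC libraries (log2 fold change −0.04 ± 0.29, and −0.60 with an adjusted p of 0.0155 without both libraries numbered 3).

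The 24 members under a mean of 1 FPKM were not tested. Of these, 6 were listed at 0 in all libraries (CCT8L2, DNAJB3, DNAJB8, HSPB2, HSPB7 and HSPB8). The highest of the others were DNAJB5, at 0.805, 1.14 and 1.07 FPKM in siEHMT2 and 0.734, 0.713 and 0.749 FPKM in siNC libraries, and DNAJC22, at 0.958, 1.25 and 1.08 FPKM in siEHMT2 and 0.571, 0.790 and 0.444 FPKM in siNC libraries. HSPBP1, an exchange factor for HSP70 left out by its suffix, was at 32.6, 32.5 and 27.8 FPKM in siEHMT2 and 27.1, 21.0 and 33.4 FPKM in siNC libraries, with a log2 fold change of 0.20 ± 0.16 (adjusted p 0.533), and HSPBAP1 at −0.10 ± 0.13 (adjusted p 0.714).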

How the data were processed

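The values are FPKM by gene in each of 6 libraries, as the authors deposited them, and the header of the table gives this unit. StringTie 2.2.0, HISAT2 2.2.1, SAMtools 1.4.1, fastp and the build hg19 appear in the submitters' processing notes, with no roles; the gene models and a strand setting are not given in the sources used here, so overlapping and antisense genes may share reads. Total RNA went into the libraries, per the labels' protocols. Groups and replicate numbers came from the titles, which all name SK-NEP-1 although another label field numbers the line from sample to sample. FPKM is relative to each library's total, so abundant genes can shift the others, and depth is unknown.

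Rows averaging 1 FPKM or more (12859 of 55765) were tested as log2(FPKM + 1) in limma 3.58.1 (R 4.3.3), with a mean-variance trend and no covariates, two-sided, and p-values were adjusted by Benjamini-Hochberg over all tested rows at 0.05. The pseudocount of 1 shrinks the fold changes of low genes. An exact permutation test of 3 against 3 libraries cannot go below 0.1, so none is given. The fit was tested on simulated data in which each gene varied independently. That test does not cover differences between libraries that many genes share, such as those of the libraries numbered 3. Alternatives were pseudocounts of 0.1 and 0.5, no or a stricter filter, 3 scalings, limma without the trend or with array weights, a replicate block, a loess correction for GC content (span 0.5, GENCODE release 29 transcripts), HSPA1A and HSPA1B summed, each library left out, and both libraries numbered 3 left out. Tables and figures used Python 3.11.15, pandas 2.3.3, numpy 2.4.6 and matplotlib 3.10.9. Promoter windows came from RefSeq (GRCh38.p14), matched by symbol.

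Members, gene lists and alternatives were chosen with earlier results of these data known, and no set test was run. The rule for named genes took EHMT2, the 20 tested members with the smallest p, the most abundant and the most and least changed member of each family, all tested stress-inducible, endoplasmic reticulum and mitochondrial members, HSF1 and HSF2, and from each other list the 2 genes with the smallest p. One gene that this rule names is not reported here. DNAJB4, DNAJB5, DNAJC22, DNAJC25-GNG10, CCT4, HSPA1L, HSPA6, CHORDC1, DEDD2, HSPBP1 and HSPBAP1, and members named only in counts, were named after their values were seen.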

Additional observations from a re-analysis of the deposited data

How the results depend on the processing

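With all 6 libraries 71 genes were called. That count was 10 without a filter on low values, 134 at a mean of at least 5 FPKM, 31 after rescaling to the same sum, 30 without the trend, 3797 with array weights, 1890 without both libraries numbered 3, and 172 without siEHMT2 replicate 3. It was 0 when siNC replicate 1 or siEHMT2 replicate 2 was left out, 1 without siNC replicate 2, 4 without siNC replicate 3 and 5 without siEHMT2 replicate 1. The array weights stopped before they converged, so their calls are not relied on. No member was called under any other setting than these: 25 with array weights (6 higher, 19 lower) and 12 without both libraries numbered 3 (3 higher, 9 lower). Deviations of same-numbered libraries from their group means had correlations of −0.3499, 0.0871 and −0.393, where the rule set for pairing asked for each over 0.1. The rule was thus not met. Deviations from a mean of 3 libraries depend on each other, so this check cannot exclude a shift shared by replicate number. The values cannot tell whether the cultures were made in pairs, which the labels do not give. The replicate block called 0 genes, with or without the GC correction. The median over all tested members, −0.0738, was −0.1187 after rescaling to the same sum, −0.1114 when mitochondrially encoded genes were left out of that sum, −0.0169 with the GC correction, alone or with the block, −0.0315 without both libraries numbered 3, and from −0.1247 to −0.045 with 1 library left out. Family medians moved by more than the spread between replicates for HSPA (−0.3421 to −0.1435 with 1 library left out), HSPH (−0.6934 with array weights, −0.6863 without both libraries numbered 3), HSP90 (−0.2287 with array weights), DNAJB (−0.11 with the GC correction, alone or with the block), BAG (−0.1643 without both libraries numbered 3, −0.1663 to −0.0391 with 1 left out), CCT (0.1317) and HSF (0.1003), the last of these without both libraries numbered 3. EHMT2 passed the threshold at a mean of at least 5 FPKM (−1.2652), with array weights (−1.5616), with the GC correction (−1.378), without both libraries numbered 3 (−1.6671) and without siEHMT2 replicate 3 (−1.5816), the range with 1 library left out being −1.5816 to −1.0808. Among the members the text was set to name, these changed sign. BAG6 had −0.0312, −0.0238 and −0.004 with the same sum, the sum without mitochondrial genes and the median-ratio scaling, −0.0374 with array weights, −0.094 with the GC correction, −0.0949 without both libraries numbered 3, and −0.0412 to 0.0725 with 1 left out. HSPD1 had −0.0278, −0.0203 and −0.0003 with those 3 scalings, −0.0686 with array weights, and −0.0391 to 0.0609 with 1 left out. DNAJC15 had 0.0234 with array weights, 0.0223 with the GC correction, 0.1571 without both and −0.1332 to 0.0789 with 1 left out. DNAJC19 had 0.0481 with the GC correction, 0.0206 without both and −0.139 to 0.0237 with 1 left out. HSF1 had −0.0414 with the GC correction, HSF2 had 0.0011 with array weights, 0.1129 without both and −0.3138 to 0.0281 with 1 left out, DNAJC1 had −0.0372 (without siNC replicate 2) to 0.214, and HSPA13 had −0.0485 (without siEHMT2 replicate 1) to 0.2445. The causes were not tested.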
